A study of Homo sapiens with 6 samples.

Results

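The 40 genes described here encode the machinery of DNA replication and the E2F factors tied to it. They were chosen by name, from textbook roles in S phase, with earlier results of these data known. Their symbols were matched to gene identifiers with GENCODE 29. All 40 were found among the 56982 identifiers present in both deposited tables, and all 40 were among the 15001 genes tested. None entered the test through 1 genotype alone.

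All libraries came from log phase cultures of U2OS, a human osteosarcoma cell line, at 65 to 75% confluency in serum-supplemented DMEM. G3C2 was edited with CRISPR/Cas9 at ZFP36L1, an RNA-binding protein that shortens the life of mRNAs with AU-rich elements, and is labelled ZFP36L1 deficient, which the submitters checked by sequencing and western blot. WT was the unedited line, and each genotype had 3 poly(A) RNA libraries, labelled here 1, b and c. The series text gives 3 growth occasions. The labels give a single name, G3C2, for all edited samples, so genotype and clone cannot be told apart, and they do not tie a library to an occasion.

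DNA replication is set up in G1, when the origin recognition complex with CDC6 and CDT1 loads the MCM2 to MCM7 helicase on chromatin. In S phase CDC45 and GINS switch that helicase on, polymerases copy the strands behind a PCNA clamp, and ribonucleotide reductase and thymidylate synthase supply the nucleotides. Many of these genes carry E2F binding sites, and their mRNAs peak around the G1/S boundary in cycling cells. In a bulk library, fewer cells in S phase and less of an mRNA in each cell cannot be told apart.

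E2F motifs in the promoters are shown because many of these genes carry E2F binding sites, and their part in the members' levels was not tested. The words TTTCCCGC, TTTCGCGC, TTTGCCGC and TTTGGCGC were searched on both strands in the RefSeq promoter windows, which run from 250 bases before to 50 bases after an annotated start. Matches that overlap were counted separately, and no other motif was searched. Of 40 members, 35 had a window, and 21 of these 35 (60%) held at least 1 match, against 652 of 10010 other tested genes (6.51%). Some members had more than 1 window, and a member was counted if any of its windows held a match. By role, a match was held by 6 of 8 licensing genes, 3 of 5 helicase activators, 3 of 5 polymerase genes, 4 of 5 maturation genes, 2 of 3 E2F genes, 2 of 5 clamp genes and 1 of 4 nucleotide genes. The members were chosen for roles in S phase and only E2F words were searched, so that choice partly sets the contrast. A match describes the letters in the window and does not show binding, and a gene with no match may hold other forms of the motif. The stretches below, 1 for each role, are up to 68 bases from RefSeq on GRCh38.p14, written 5′ to 3′ on the gene's own strand, with the match in capitals. Each runs 30 bases beyond the match on both sides, except that POLE's ends at the start site and GINS1's at the end of the match.
E2F3: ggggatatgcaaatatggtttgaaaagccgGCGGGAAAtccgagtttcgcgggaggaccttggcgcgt
MCM7: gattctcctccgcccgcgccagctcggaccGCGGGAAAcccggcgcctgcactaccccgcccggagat
GINS1: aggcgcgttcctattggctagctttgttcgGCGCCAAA
PCNA: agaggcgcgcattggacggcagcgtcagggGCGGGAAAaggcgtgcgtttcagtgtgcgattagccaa
POLE: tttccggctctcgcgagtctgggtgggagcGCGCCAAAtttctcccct
TYMS: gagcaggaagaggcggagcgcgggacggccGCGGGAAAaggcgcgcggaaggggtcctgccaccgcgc
UNG: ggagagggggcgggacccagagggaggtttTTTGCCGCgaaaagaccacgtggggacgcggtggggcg
GCGGGAAA is TTTCCCGC read on the other strand, and GCGCCAAA is TTTGGCGC read on the other strand. The stretches lie at chr6:20401796-20401863 for E2F3, chr7:100101547-100101614 (minus strand) for MCM7, chr20:25407648-25407685 for GINS1, chr20:5126644-5126711 (minus strand) for PCNA, chr12:132687343-132687390 (minus strand) for POLE, chr18:657584-657651 for TYMS and chr12:109098079-109098146 for UNG. TTTCCCGC occurred in the stretches of E2F3, MCM7, PCNA and TYMS, which belong to different roles. MCM7 had 2 matches in the window printed from, of which the stretch shows 1, and no match in its other windows. E2F3, PCNA and UNG also had another window with no match.

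Values are FPKM, fragments scaled to gene length and to a total set for each library. Replicate 1 of both genotypes stood in the first table, and replicates b and c stood in the second. The tables were scaled separately, so the genotypes were compared only within a table. In the second table the values stepped in whole reads, which gave back between 22614600 and 28977500 reads per library. The members' values there rested on between 335 and 18278 reads per library, leaving out E2F2, so counting error alone was at most 5.46% (1 SD). In replicate c the values had been divided by 22558800 reads in G3C2 and 25406400 in WT, where 25844600 and 22614600 were recovered. This scale raises G3C2 replicate c and lowers WT replicate c relative to the recovered reads. In replicate b the divisors, 26515300 in G3C2 and 29670500 in WT, were slightly above the recovered 26099900 and 28977500. For replicate 1 the depth is unknown. ZFP36L1 itself had 238, 105.1 and 82.4 FPKM in G3C2 replicates 1, b and c, against 165, 57.1 and 128 FPKM in WT, so its mRNA does not check the edit. Of 8 mesenchymal markers, VIM, SPARC, FN1, COL1A1, CDH2 and RUNX2 had at least 6.41 FPKM in each library, while COL1A2 and TWIST1 were below 1 FPKM in all 6 libraries. Blood markers summed to between 0.301 and 0.605 FPKM in G3C2 and between 0.259 and 0.637 FPKM in WT, with CD3E at 0 throughout, and endothelial markers summed to at most 2.52 FPKM in G3C2 and 2.16 FPKM in WT. Epithelial markers summed to between 4.16 and 12.7 FPKM in G3C2 and between 4.37 and 21.6 FPKM in WT. EPCAM, KRT14 and CLDN4 each reached at least 1 FPKM in some libraries of both genotypes. For the members, G3C2 replicate c and WT replicate c stood apart from the b libraries, in opposite directions, so results are given by pair and without these libraries.

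Levels also differed between the tables in a way that varied from gene to gene. In WT, the first table's value over the mean of the second's was 1.34 for PCNA and 14.3 for RRM2, with a median of 3.79 over 39 members and 2.49 over all tested genes. E2F2, an activator E2F, had 21.5 FPKM in G3C2 and 26.6 FPKM in WT in the first table. In the second table it had 1 recovered read in G3C2 replicate b and 0 reads in G3C2 replicate c and both WT libraries. A count of 0 allows up to 3 reads, which is 0.0244 FPKM in G3C2 replicate c and 0.0185 FPKM in WT replicate b and 0.0216 FPKM in WT replicate c. Of the tested genes, 130 likewise had at least 10 FPKM in both libraries of the first table and under 0.1 in all 4 of the second. Without E2F2 the members' medians given below kept their direction.

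No replication gene passed the genome-wide test for a genotype difference, and the 3 replicate pairs, matched by label, gave opposite pictures. In replicates 1 and b most members were slightly lower in G3C2 than in WT, while in replicate c 38 of 40 were higher, by about 2-fold at the median. Over the 3 pairs, limma called 0 of 40 members higher and 0 lower at an adjusted p under 0.05 (lowest 0.278), where 0.02% of all tested genes were called higher and 0.0267% lower. At an unadjusted p under 0.05, 3 members were higher (POLE2, TYMS and PRIM1) and 0 lower, where all tested genes gave 6.19% and 7.43%. With the replicate label as a block, 1 member had an unadjusted p under 0.05. The members' median log2 fold change, G3C2 minus WT on the log2(FPKM + 1) scale, was 0.19, against 0.01 over all tested genes. The members' value was 0.068 with libraries scaled to equal sums, 0.065 with quantile normalization and 0.40 with limma-voom on the second table's reads. The limma-voom fit left out replicate 1 and kept the divisors of the deposited values as library sizes, so it is not another scaling.

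The median of the 40 genes hid a spread between the pairs, which were matched by replicate label alone. Within the second table same-labelled libraries did not deviate together (r = -0.17), so its pairs could be matched otherwise. For 33 of 39 members without E2F2, G3C2 c was the highest and WT c the lowest library of the second table, as for 25.6% of all tested genes. For these 33, matching G3C2 c with WT b and G3C2 b with WT c would put G3C2 higher in both. For replicates 1, b and c the members' median differences were -0.18, -0.28 and 1.06, beside -0.08, -0.01 and 0.07 for all tested genes. In replicate 1, 32 of 40 members lay lower in G3C2 and 8 higher, and in replicate b 33 lay lower and 7 higher. The 7 include E2F2, which had 1 read in G3C2 replicate b and 0 in WT replicate b. In replicate c, 38 lay higher, E2F7 lay lower and E2F2 was at 0 in both libraries. Of all 15001 tested genes, 8755 lay lower in replicate 1, 7608 lower in replicate b and 8254 higher in replicate c. Counted at 1.5-fold or more, replicate 1 had 1 member higher and 2 lower (all tested genes 5.95% and 12.5%). Replicate b had 0 higher and 3 lower (all tested genes 5.07% and 4.05%). Replicate c had 36 higher and 0 lower (all tested genes 22.1% and 14%). The sequence of lower, lower and higher was shown by 30 of 40 members and 19.3% of all tested genes. Scaling each library to the same sum brought the median of replicate c to 0.68, while the medians of replicates 1 and b stayed below 0. At equal library medians replicate 1 had -0.085. Scaling to the same sum moved the median of all tested genes by -0.12 over the 3 pairs.

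Replicate c set the sign of the members' median. Without that pair it was -0.25, without WT replicate c alone -0.06, and without G3C2 replicate c alone -0.03. Without replicate b it was 0.42, and in the second table alone 0.38. In the fit lacking replicate c, which has 1 residual degree of freedom, limma called 3 members lower and 0 higher. The backgrounds in that fit were 3.05% of all tested genes lower and 2.99% higher. These 3 were GINS2 (-0.99, limma adjusted p = 0.00587), CDT1 (-0.76, limma adjusted p = 0.0199) and RFC5 (-0.46, limma adjusted p = 0.0492).

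**Figure D1:**
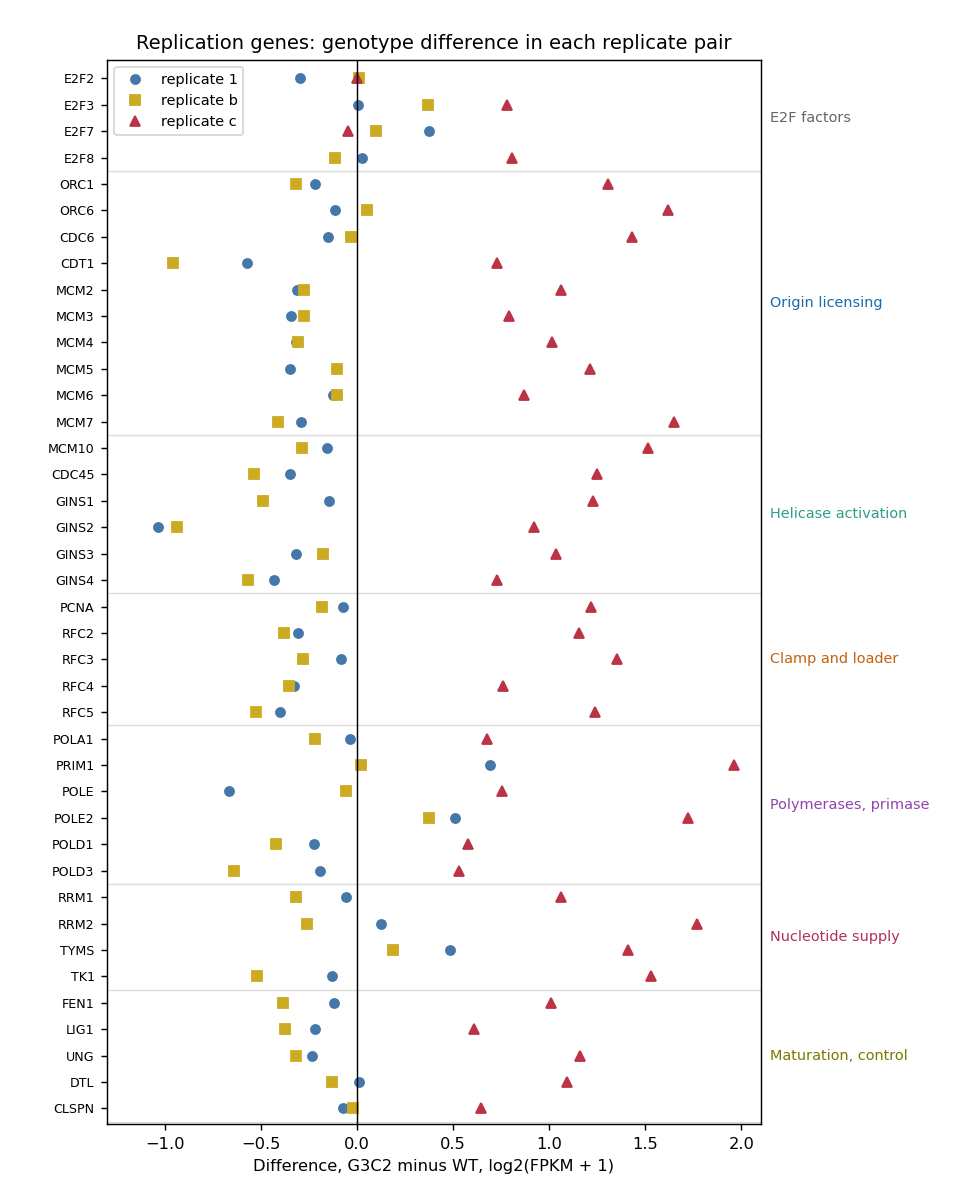
Difference between G3C2 and WT on the log2(FPKM + 1) scale for each of the 40 replication genes, grouped by role, with 1 point for each replicate pair. In replicate c 38 of 40 points lie above 0, while in replicates 1 and b 32 and 33 lie below 0.

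E2F factors sit upstream of the other genes: E2F3 is an activator, and E2F7 and E2F8 are atypical members that repress E2F targets late in S phase. E2F3 had 13.5, 10.7 and 13.7 FPKM in G3C2 replicates 1, b and c, against 13.5, 8.03 and 7.55 FPKM in the same WT replicates. G3C2 lay above WT in all 3 pairs, by 0.01, 0.37 and 0.78, and in the second table both G3C2 libraries were above both WT libraries (log2 fold change 0.39, SE 0.18, limma adjusted p = 0.425). E2F7 had 38.8, 13.4 and 10.1 FPKM in G3C2 replicates 1, b and c, against 29.7, 12.4 and 10.4 FPKM in the same WT replicates. It was the exception of the family, the only member with E2F2 whose level in G3C2 was not higher in replicate c than in b (log2 fold change 0.14, SE 0.18, limma adjusted p = 0.745). E2F8 had 10.3, 3.93 and 6.32 FPKM in G3C2 replicates 1, b and c, against 10.1, 4.34 and 3.18 FPKM in the same WT replicates. E2F8 thus followed the replicate c pattern of the replication enzymes, which E2F7 did not.

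Origin licensing genes lay on the same side together. Their median differences for replicates 1, b and c were -0.30, -0.28 and 1.14, and all 10 lay higher in G3C2 in replicate c and lower in replicate 1. MCM7 (ENSG00000166508, chromosome 7, 100092728 to 100101940, minus strand, GRCh38), the most abundant of the 10 over the 6 libraries, had 297, 104 and 185 FPKM in G3C2 replicates 1, b and c, against 363, 139 and 58.3 FPKM in the same WT replicates. The WT libraries of the second table stood furthest apart here, with 1 G3C2 value between them and 1 above both (log2 fold change 0.31, SE 0.42, limma adjusted p = 0.764). ORC6, the smallest subunit of the origin recognition complex, had 45.1, 10.3 and 24.4 FPKM in G3C2 replicates 1, b and c, against 48.9, 9.88 and 7.27 FPKM in the same WT replicates. Its level in G3C2 replicate c was more than 2 times that of each of the other 3 libraries of the second table (log2 fold change 0.52, SE 0.36, limma adjusted p = 0.567). ORC1, the subunit that anchors the complex, had 17.2, 13.7 and 23.6 FPKM in G3C2 replicates 1, b and c, against 20.1, 17.2 and 8.96 FPKM in the same WT replicates. CDC6, the loading ATPase, had 117, 23.02 and 40.7 FPKM in G3C2 replicates 1, b and c, against 130.3, 23.6 and 14.5 FPKM in the same WT replicates. Both had their highest second-table value in G3C2 replicate c and their lowest in WT replicate c.

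CDT1, the licensing factor that geminin holds in check, differed from the rest of the group. CDT1 (ENSG00000167513, chromosome 16, 88803213 to 88809258, plus strand, GRCh38) had 27.6, 17.6 and 29.7 FPKM in G3C2 replicates 1, b and c, against 41.4, 35.1 and 17.5 FPKM in the same WT replicates. WT replicate b was at about 2 times each of G3C2 replicate b and WT replicate c, and the pair differences were -0.57, -0.96 and 0.73 (log2 fold change -0.27, SE 0.32, limma adjusted p = 0.7401).

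The MCM2 to MCM7 subunits form a ring with 1 copy of each, and their transcripts kept similar proportions within a table while their sum differed between libraries. The summed FPKM of the 6 subunits was 1153, 349 and 530.1 in G3C2 replicates 1, b and c, against 1416, 427 and 234 in WT. In replicate c G3C2 was thus at more than 2 times WT, and in replicates 1 and b below it. MCM5 was the lowest of the 6 subunits in each of the 6 libraries, at between 8.13 and 10.4% of the sum. MCM2 took between 13.4 and 14.5% in the 4 libraries of the second table, and MCM4 between 12.5 and 13.8%. MCM7 took 29.8 and 34.8% in G3C2 replicates b and c, against 32.5 and 24.9% in WT, the widest range of the 6. WT replicate c was the only library of the second table in which MCM3, at 26.1%, stood above MCM7. In the first table MCM4 took the largest share, 27.1% in G3C2 and 27.4% in WT, about 2 times its share in the second. The order of the subunits differed between the tables, while the genotypes within the first table had nearly the same make-up.

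**Figure D2:**
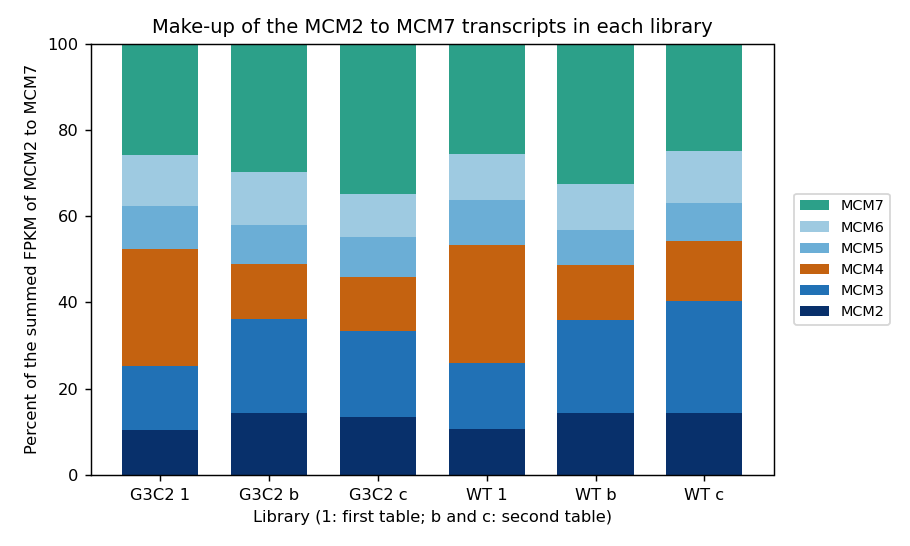
Share of each subunit in the summed FPKM of MCM2 to MCM7, in percent, with 1 bar for each library. MCM5 is lowest in every bar, MCM4 takes 27.1 and 27.4% in the first table (replicate 1), and MCM7 ranges between 24.9 and 34.8% in the second table (replicates b and c).

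Helicase activators had the lowest median of the 7 roles in replicate b. CDC45 and GINS join the MCM ring to make the active helicase, and MCM10 helps it start. Median differences of the 6 genes were -0.33, -0.51 and 1.13, and all 6 lay lower in G3C2 in replicates 1 and b and higher in replicate c. CDC45 had 77.8, 19.4 and 44.7 FPKM in G3C2 replicates 1, b and c, against 99.3, 28.6 and 18.2 FPKM in the same WT replicates. G3C2 replicate c was at more than 2 times G3C2 replicate b, and WT replicate c was the lowest library (log2 fold change 0.12, SE 0.36, limma adjusted p = 0.901). MCM10 had 57.5, 12.7 and 24.95 FPKM in G3C2 replicates 1, b and c, against 64.2, 15.6 and 8.097 FPKM in the same WT replicates (log2 fold change 0.36, SE 0.35, limma adjusted p = 0.684). Its replicate c difference, 1.51, was the largest of the 6. GINS2 (ENSG00000131153, chromosome 16, 85676198 to 85690073, minus strand, GRCh38) had 35.2, 13.7 and 23.5 FPKM in G3C2 replicates 1, b and c, against 73.2, 27.1 and 11.95 FPKM in the same WT replicates. Its pair differences were -1.04, -0.94 and 0.92, the lowest of any member in replicate 1 (log2 fold change -0.35, SE 0.39, limma adjusted p = 0.7196). The other GINS subunits differed less in replicate 1, by -0.14 for GINS1, -0.32 for GINS3 and -0.43 for GINS4.

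PCNA, the sliding clamp, and the RFC subunits that load it had medians of -0.31, -0.35 and 1.22. PCNA (ENSG00000132646, chromosome 20, 5114953 to 5126626, minus strand, GRCh38) had 209, 185 and 278 FPKM in G3C2 replicates 1, b and c, against 219, 209 and 119 FPKM in the same WT replicates. In the first table the genotypes were nearly equal, and in the second WT replicate c was the low library (log2 fold change 0.32, SE 0.31, limma adjusted p = 0.674). RFC5 had 55.5, 13.5 and 24.2 FPKM in G3C2 replicates 1, b and c, against 73.7, 19.9 and 9.69 FPKM in the same WT replicates (log2 fold change 0.10, SE 0.35, limma adjusted p = 0.916). RFC2 had 82.7, 29.2 and 47.7 FPKM in G3C2 replicates 1, b and c, against 103, 38.3 and 20.8 FPKM in the same WT replicates. RFC2, RFC3 and RFC4 lay between 0.76 and 1.35 in replicate c and below 0 in replicates 1 and b.

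Polymerase genes divided in the pair differences, with POLE2 and PRIM1 higher in G3C2 in all 3 pairs and the others in replicate c only. POLE2, the second subunit of the leading strand polymerase epsilon, is the gene with the lowest p of the 40. POLE2 (ENSG00000100479, chromosome 14, 49643555 to 49688422, minus strand, GRCh38) had 65.6, 10.1 and 20.1 FPKM in G3C2 replicates 1, b and c, against 45.7, 7.54 and 5.39 FPKM in the same WT replicates. Both G3C2 libraries of the second table were above both WT libraries, and its pair differences were 0.51, 0.38 and 1.72 (log2 fold change 0.87, SE 0.29, limma adjusted p = 0.278). Its partner POLE, the catalytic subunit, had 64.3, 9.18 and 14.4 FPKM in G3C2 replicates 1, b and c, against 103, 9.61 and 8.12 FPKM in the same WT replicates, with pair differences of -0.67, -0.06 and 0.75. The subunits of this polymerase thus lay on opposite sides of WT in replicate 1, while in replicate b POLE was close to WT. PRIM1, the primase subunit that makes RNA primers, had 124, 22.1 and 40.8 FPKM in G3C2 replicates 1, b and c, against 76.2, 21.8 and 9.72 FPKM in the same WT replicates. The genotypes differed by 0.02 in replicate b and were furthest apart in replicate c, at 1.96 (log2 fold change 0.89, SE 0.35, limma adjusted p = 0.351). PRIM1 shares 21.6% of its exon bases with other annotated genes on either strand. POLA1, the catalytic subunit that PRIM1 works with, had 25.6, 6.798 and 8.59 FPKM in G3C2 replicates 1, b and c, against 26.3, 8.07 and 5.001 FPKM in the same WT replicates. POLD1 and POLD3 are subunits of the lagging strand polymerase delta. POLD1 had 32.1 and 44.97 FPKM in G3C2 replicates b and c, against 43.2 and 29.8 FPKM in the same WT replicates, and POLD3 had 6.05 and 9.76 FPKM in G3C2 replicates b and c, against 9.97 and 6.45 FPKM in the same WT replicates. Their replicate c differences were 0.58 and 0.53, the smallest among members outside the E2F family.

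Enzymes of nucleotide supply had the largest replicate c median of the 7 roles, at 1.47, beside 0.03 and -0.29 in replicates 1 and b. RRM2, the S-phase subunit of ribonucleotide reductase, had 506, 36.4 and 74.2 FPKM in G3C2 replicates 1, b and c, against 464, 43.7 and 21.1 FPKM in the same WT replicates. The second table spans a range of more than 3-fold between G3C2 replicate c and WT replicate c, while the first table's genotypes are close (log2 fold change 0.54, SE 0.38, limma adjusted p = 0.569). RRM2 shares 20.2% of its exon bases with another annotated gene on the same strand. TYMS, thymidylate synthase, had 142, 82.5 and 137 FPKM in G3C2 replicates 1, b and c, against 101, 72.3 and 50.9 FPKM in the same WT replicates. TYMS (ENSG00000176890, chromosome 18, 657604 to 673578, plus strand, GRCh38) was higher in G3C2 in each pair, by 0.49, 0.19 and 1.41 (log2 fold change 0.70, SE 0.26, limma adjusted p = 0.3299). It shares 46.6% of its exon bases with the opposite-strand genes ENOSF1 and TYMSOS, and whether counting used strand is not given in the sources used here. TK1, thymidine kinase, had 181, 112 and 223 FPKM in G3C2 replicates 1, b and c, against 198, 160.3 and 76.6 FPKM in the same WT replicates. RRM1, the large reductase subunit, had 183, 37.2 and 57.3 FPKM in G3C2 replicates 1, b and c, against 191, 46.6 and 26.9 FPKM in the same WT replicates. Both followed the order in which G3C2 replicate c is highest and WT replicate c lowest.

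FEN1 and LIG1, which trim and seal Okazaki fragments, UNG, which removes uracil, and the S-phase regulators DTL and CLSPN had medians of -0.12, -0.32 and 1.01. FEN1 had 145, 75.6 and 113 FPKM in G3C2 replicates 1, b and c, against 158, 99.2 and 55.6 FPKM in the same WT replicates (log2 fold change 0.17, SE 0.29, limma adjusted p = 0.824). DTL, the substrate receptor that marks CDT1 for destruction in S phase, had 44.8, 13.2 and 20.01 FPKM in G3C2 replicates 1, b and c, against 44.4, 14.6 and 8.85 FPKM in the same WT replicates (log2 fold change 0.33, SE 0.26, limma adjusted p = 0.606). The genotypes were nearly equal for DTL in the first table. UNG had 52.02, 31.8 and 55.3 FPKM in G3C2 replicates 1, b and c, against 61.3, 39.95 and 24.2 FPKM in the same WT replicates. LIG1 and CLSPN had smaller replicate c differences, 0.61 and 0.65. All 5 lay lower in G3C2 in replicate b.

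Replicates c and b of the same genotype also differed, in opposite directions in G3C2 and WT. In G3C2 the members' median difference, replicate c minus b, was 0.61, and in WT it was -0.68. Over all tested genes these medians were 0.05 in G3C2 and -0.06 in WT. In G3C2, 38 of 40 members were higher in replicate c than in b, and E2F7 and E2F2 were not. In WT, 39 of 40 were lower in replicate c, and E2F2 was at 0 in both. Of all 15001 tested genes, 8142 were higher in G3C2 replicate c than in b, and 8501 were lower in WT replicate c. At 1.5-fold or more, 24 members were higher and 0 lower in G3C2 replicate c, where all tested genes gave 12.4% and 8.84%. In WT replicate c 0 were higher and 26 lower, where all tested genes gave 6.71% and 8.13%. With 1 library on each side these differences have no test. Scaled to equal sums the medians were 0.36 in G3C2 and -0.56 in WT.

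Across the 4 libraries of the second table, 33 of 40 members were highest in G3C2 replicate c and lowest in WT replicate c, as were 25.6% of all tested genes. For 28 of the 39 members without E2F2 the full order was G3C2 c, WT b, G3C2 b and WT c, highest to lowest. For these genes the b libraries lay between the c libraries. Members with a larger positive difference in G3C2 tended to have a larger negative one in WT (Pearson r = -0.41, Spearman rho = -0.39, across 39 genes that share the same 4 libraries). Across all tested genes r was -0.17 and rho -0.27. ORC6 and CDC45 had the largest differences in G3C2, 1.17 and 1.16, and MCM7 and GINS2 the most negative in WT, -1.24 and -1.12.

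The members' share of all FPKM gives the same order without a scale between libraries. They took 0.552, 0.498 and 0.656% of the summed FPKM in G3C2 replicates 1, b and c, against 0.616, 0.597 and 0.382% in WT. Genes of the mitochondrial genome took 7.47 and 6.73% in G3C2 replicates b and c, against 8.83 and 13.96% in WT. With these genes left out of the total, the members' share was 0.538 and 0.703% in G3C2 replicates b and c, against 0.655 and 0.444% in WT, in the same order. The median member stood at percentiles 84.2, 80.1 and 86.1 of tested genes in G3C2 replicates 1, b and c, against 86.8, 85.1 and 74.2 in WT. By this measure WT replicate c was the lowest library, and G3C2 replicate c lay near WT replicates 1 and b.

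**Figure D3:**
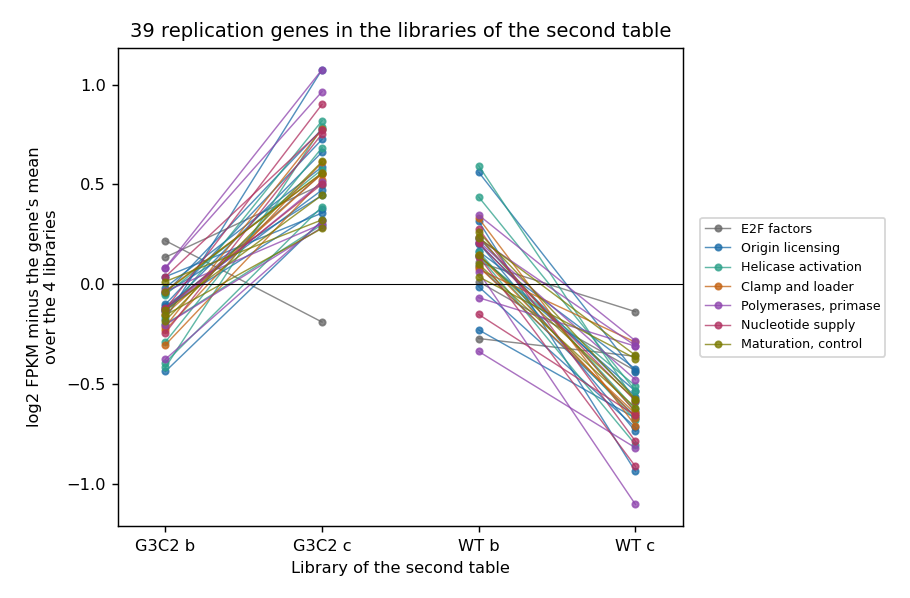
Level of 39 replication genes (all but E2F2) in the 4 libraries of the second table, as log2 FPKM minus the gene's mean over these libraries, with lines joining the replicates of a genotype and colours for the roles. Replicate c lies above b in G3C2 for all 39 except E2F7, and below b in WT for all 39.

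**Figure D4:**
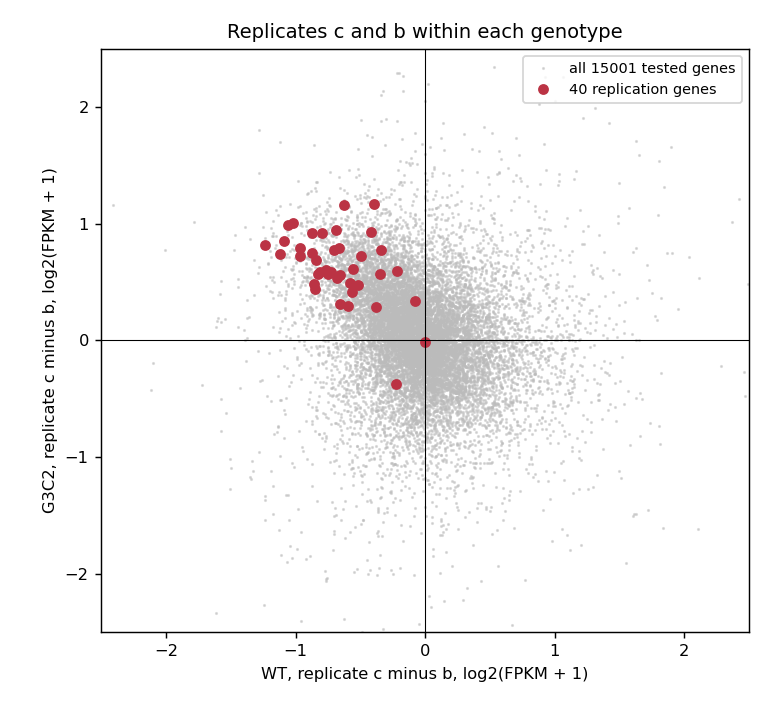
Difference between replicates c and b in G3C2 (vertical axis) and in WT (horizontal axis), on the log2(FPKM + 1) scale, for the 40 replication genes and all 15001 tested genes. Of the tested genes, 27 lie outside the plotted range of 2.5. The members crowd the upper left of the plot, with medians of 0.61 in G3C2 and -0.68 in WT.

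Few members kept 1 direction across the pairs as labelled, and a crossed match of b and c would give other counts. Higher in G3C2 in all 3 pairs were 4 of 40 (E2F3, PRIM1, POLE2 and TYMS), and lower in all 3 were 0, where all tested genes gave 17.8% and 18.6%. Without replicate c the log2 fold changes of these 4 were 0.19 for E2F3, 0.36 for PRIM1, 0.44 for POLE2 and 0.34 for TYMS. Set against the members' own median in each pair, 8 genes lay above it in all 3 pairs and 8 below it. A median places as many members above as below it in every pair, so some genes on each side arise without any consistency. Relative to that median POLE2 was at 0.69, 0.66 and 0.66, nearly equal in the 3 pairs. PRIM1 was at 0.87, 0.30 and 0.90, and TYMS at 0.66, 0.47 and 0.35. GINS2 was at -0.86, -0.66 and -0.14, and CDT1 at -0.40, -0.68 and -0.33. These genes were picked out after their values were seen.

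Genes around some of these departed from WT in the direction in which the member departed from the members' median. Tested protein-coding genes within 5 Mb on either side, members left out, were used as neighbours. Around GINS2, 68 neighbours on distal chromosome 16 had median differences of -0.60, -0.44 and -0.32 in pairs 1, b and c. Around CDT1, nearby, 57 had -0.61, -0.46 and -0.37. All tested protein-coding genes had -0.07, -0.01 and 0.10. Around PRIM1 on chromosome 12, 119 neighbours had 0.40, 0.30 and 0.47, and around TYMS on chromosome 18, 16 had 0.28, 0.29 and 0.31. Around POLE2 on chromosome 14, 46 neighbours had 0.11, 0.05 and 0.21, smaller than the differences of POLE2 itself. MCM6 on chromosome 2 had 17 neighbours at -0.44, -0.35 and -0.26, while its own pair differences, -0.13, -0.10 and 0.87, were near those of the other MCM genes. The part of these neighbourhoods in the members' values was not tested.

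Replication genes outside the 40 gave pair medians of the same order. A list of 71 further genes covered origin firing, other fork proteins, nucleotide metabolism, chromatin assembly and the remaining E2F, DP and RB genes. Of these 71, 0 passed the limma threshold over all genes in either direction, and 2 higher and 1 lower had an unadjusted p under 0.05 (ORC3, TIMELESS and E2F5), smaller shares than the 6.19% and 7.43% of all tested genes. By pair (1, b, c) their median differences were -0.09, -0.11 and 0.89. In the last pair 49 were at least 1.5-fold higher in G3C2 and 3 lower, where all tested genes gave 22.1% and 14%. ORC3, an origin recognition subunit, had 25.5, 7.07 and 9.81 FPKM in G3C2 replicates 1, b and c, against 19.3, 5.53 and 4.65 FPKM in WT. TOPBP1, a scaffold of origin firing, had 164, 15.9 and 22.9 FPKM in G3C2 replicates 1, b and c, against 190.3, 20.96 and 13.9 FPKM in WT. TOP2A, which untangles replicated DNA, had 819, 94.2 and 139 FPKM in G3C2 replicates 1, b and c, against 625, 104 and 70.1 FPKM in WT. In all 3 the second table was highest in G3C2 replicate c and lowest in WT replicate c.

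TOP1, the topoisomerase ahead of the fork, had 54.8, 42.4 and 49.9 FPKM in G3C2 replicates 1, b and c, against 46.8, 36.3 and 28.8 FPKM in WT, above WT in each pair. IMPDH2, of guanine nucleotide synthesis, had 432, 106 and 162 FPKM in G3C2 replicates 1, b and c, against 369, 99.5 and 87.3 FPKM in WT. DCK, deoxycytidine kinase of the salvage route, had 46.8, 27.3 and 37.1 FPKM in G3C2 replicates 1, b and c, against 37.5, 25.3 and 16.99 FPKM in WT. IMPDH2 and DCK were likewise higher in G3C2 in each pair. NASP, a histone chaperone, had pair differences of -0.09, -0.23 and 0.46, and ATAD2, a chromatin ATPase, 0.39, 0.13 and 1.32. TFDP1, the DNA-binding partner of E2Fs, had 134, 31.6 and 59.2 FPKM in G3C2 replicates 1, b and c, against 146, 34.7 and 29.5 FPKM in WT. E2F5, of the repressor class, was low, with 1.79, 1.06 and 0.912 FPKM in G3C2 replicates 1, b and c, against 3.81, 1.32 and 1.34 FPKM in WT. E2F1, an activator chosen after its values were seen, had 39.02, 52.7 and 77.3 FPKM in G3C2 replicates 1, b and c, against 36.6, 48.2 and 25.2 FPKM in WT. Its replicate c difference of 1.58 stood beside 0.78 for E2F3.

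Mitosis genes differed alike in replicate c, and most but not all G1/S genes lay higher in G3C2 there. A list of 30 mitosis genes, in which TOP2A is counted again, had medians of 0.06, -0.31 and 0.999, and all 30 lay higher in G3C2 in replicate c. UBE2C, a ubiquitin-conjugating enzyme of mitotic exit, had 154, 60.2 and 113 FPKM in G3C2 replicates 1, b and c, against 83.3, 54.1 and 39.2 FPKM in WT. The 15 tested G1/S cyclins, kinases and inhibitors had medians of 0.35, 0.14 and 0.83, with 12 higher in G3C2 in replicate 1 and 11 in each of b and c. In replicate c 11 of the 15 were at least 1.5-fold higher in G3C2, where all tested genes gave 22.1%. The 2 at least 1.5-fold lower were CCND2 (-1.15) and CDKN1A (-0.82), where all tested genes gave 14%. CCND1, cyclin D1, had pair differences of 0.45, 0.22 and 0.73, and CDKN2D, an inhibitor of CDK4 and CDK6, 0.84, 0.29 and 0.83.

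Targets of p53 lay on the other side of WT in replicate c. The 15 genes of that list had medians of 0.02, 0.05 and -0.64, and in WT all 15 were higher in replicate c than in b, with a median of 0.42. The list shares CDKN1A with the G1/S list and RRM2B with the further replication genes. Among the 15, SESN2 was nearly absent from the second table, with 0.0114 FPKM in WT replicate c and 0 in the rest. BAX, a cell death effector, had pair differences of 0.06, 0.30 and 0.55. CDKN1A, the p21 inhibitor of cyclin-dependent kinases, chosen after its values were seen, had 87.9, 102 and 75.5 FPKM in G3C2 replicates 1, b and c, against 68.95, 65.7 and 134 FPKM in WT. GDF15, a stress-induced cytokine, had 0.648, 1.52 and 0.255 FPKM in G3C2 replicates 1, b and c, against 2.48, 4.44 and 11.4 FPKM in WT. WT replicate c had the highest level of both genes among the 6 libraries, the largest mitochondrial share and the lowest member share. In replicate c, 13 of 15 p53 targets lay lower in G3C2, SESN2 among them by only -0.016. The part of these differences in the members' values was not tested.

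**Figure D5:**
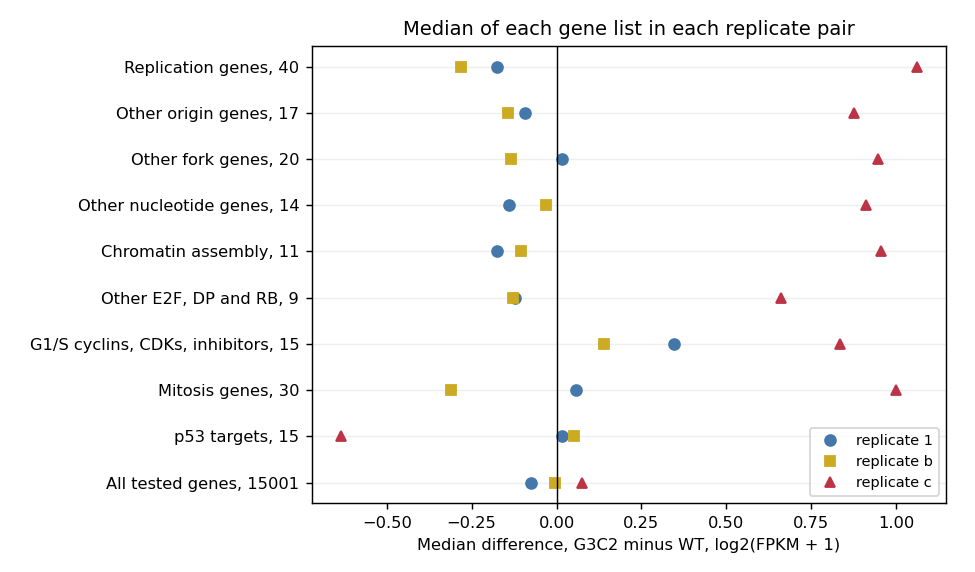
Median difference between G3C2 and WT on the log2(FPKM + 1) scale for the replication genes, the other gene lists and all tested genes, with 1 point for each replicate pair and the number of tested genes beside each name. Replicate c lies above 0.6 for all replication and cell cycle lists and below -0.6 for p53 targets, while all tested genes lie within 0.08 of 0.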

How the data were processed

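Poly(A) RNA of 3 G3C2 and 3 WT libraries was measured as FPKM, deposited by the authors in 2 tables and used as deposited. CASAVA, HISAT2 and GRCh38.p12 appear in the submitters' processing notes, without versions. The counting tool and its strand setting are not given in the sources used here. Titles gave genotype and the labels b and c, and libraries without a letter are called 1. The spread between libraries that the p-values rest on may be partly technical.

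The members and gene lists were chosen with earlier results of these data known. Genes with a value in both tables and at least 1 FPKM in at least 2 libraries were tested on the log2(FPKM + 1) scale (R 4.3.3, limma 3.58.1). The model had genotype and table as terms and a trended variance, and p-values were adjusted by Benjamini-Hochberg over 15001 genes, with a threshold of 0.05. This scale understates differences of low genes. Pairs, and replicates c and b, were compared as single libraries without a test.

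Reads of the second table were recovered with GENCODE 29 exon lengths. Between 97.3 and 97.4% of the values above 0 were whole within 0.02 reads. Of 40 members, 17 share exon bases with another annotated gene, and 5 share at least 20% of theirs (MCM2, GINS4, PRIM1, RRM2 and TYMS). Members with full statistics were, for each of 7 roles, the most abundant and the one with the largest moderated t, and any past the threshold in any fit. Same-labelled libraries deviated together over both tables (r = 0.93, 0.80 and 0.60 for replicates 1, b and c), a pattern that separate tables alone can produce, but not within the second (r = -0.17). Alternatives were a pseudocount of 0.1, filters, scalings and variance models, the replicate block, limma-voom on recovered reads and the removal of each library or pair. Tables and figures were made with pandas 2.3.3 and matplotlib 3.10.9 in Python 3.11.15.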

Additional observations from a re-analysis of the deposited data

Results flagged for a closer look

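The members' difference between replicates c and b had opposite signs in the genotypes, with a median of 0.61 in G3C2 and -0.68 in WT on the log2(FPKM + 1) scale. It drew attention because 38 of 40 members lay above 0 in G3C2 and 39 of 40 lay below 0 in WT. Of all 15001 tested genes, 8142 lay above 0 in G3C2 and 8501 below 0 in WT. With 1 library for each replicate and genotype, the difference between the genotypes was not tested.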

How the results depend on the processing

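No member passed the adjusted threshold, higher or lower, under any alternative that kept replicate c. Leaving out a library or a pair gave 0 to 3 members called lower, the most without replicate c, and 1 to 20 at an unadjusted p under 0.05, against 3. Of all genes, 0 to 448 were then called higher and 0 to 457 lower, against 3 and 4, the most without replicate c. At equal medians 5 genes were called higher. With limma-voom, at equal sums, with the table term dropped, in the second table alone (block or no block), under the replicate block or with all genes kept, 0 were. No gene was called lower without a filter, without the table term, in the second table alone with or without the block, or at equal sums, and 1 was at a mean FPKM of at least 5 or with the replicate block. Members at an unadjusted p under 0.05 numbered 1 with the block, 0 without the table term, 1 in the second table alone and 0 there with the block. A crossed block, pairing WT replicate b with G3C2 replicate c, was chosen after the data were seen and gave 3 genes higher, 5 lower and 0 members. Other scalings turned CDC45 (-0.021 with quantile normalization, -0.014 at equal sums), FEN1 (-0.037 with quantile normalization) and RFC5 (-0.026 at equal sums) below 0. The replicate block changed no other call. Over the fits without a library or pair, log2 fold changes ran from -0.441 to 0.451 for CDC45, -0.253 to 0.445 for FEN1, -0.352 to 0.678 for MCM7, -0.465 to 0.417 for RFC5, -0.765 to 0.079 for CDT1, -0.058 to 0.553 for DTL, -0.220 to 0.678 for MCM10, -0.033 to 0.834 for ORC6, -0.126 to 0.573 for PCNA and -0.067 to 0.946 for RRM2. They kept their sign for the rest, 0.187 to 0.575 for E2F3, 0.027 to 0.284 for E2F7, -0.986 to -0.007 for GINS2, 0.444 to 1.116 for POLE2, 0.355 to 1.327 for PRIM1 and 0.336 to 0.949 for TYMS. The causes were not tested, beyond fewer genes or libraries entering. The medians per pair and between replicates c and b kept their direction at equal medians, at equal sums, with a pseudocount of 0.1 and without E2F2, but the replicate 1 median was -0.085 at equal medians, against -0.18. The unknown depth of the first table limits the precision of replicate 1.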
